A study of Mus musculus with 24 samples.

Results

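Cathepsins are proteases of the lysosome, and 10 of them (Ctsa, Ctsb, Ctsc, Ctsd, Ctsf, Ctsh, Ctsl, Ctso, Ctss and Ctsz) were followed here through 24 hippocampi of male mice. Each was found as the noncontrol array probes whose RefSeq accession belongs to that symbol. That gave 12 probes for the 10 genes, out of 56605 noncontrol probes, which cover 22911 symbols. Ctsh had 3 probes and each of the others had 1. All 12 probes were well above background on all 24 arrays, none was saturated, and all 10 genes entered the tests. In the RefSeq annotation of build GRCm38.p6, Ctsz lies at chr2:174427494-174439039 and Ctsa at chr2:164832872-164841032. Ctss (chr3:95526786-95556405) and Ctso (chr3:81932601-81956725) share chromosome 3, and Ctsc (chr7:88278024-88315861) and Ctsd (chr7:142375910-142387827) chromosome 7. Ctsb lies at chr14:63122462-63145923, Ctsh at chr9:90054267-90076095, Ctsl at chr13:64361890-64370772 and Ctsf at chr19:4855165-4860918.

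Most cathepsins are made as inactive precursors, carried to the lysosome by mannose 6-phosphate receptors and activated there at acid pH. Cysteine cathepsins of the papain family (Ctsb, Ctsc, Ctsf, Ctsh, Ctsl, Ctso, Ctss and Ctsz) are held in check by cystatins, whereas Ctsd is an aspartic and Ctsa a serine protease. In brain, Ctss, and in large part Ctsz, Ctsh and Ctsc, are known as genes of microglia, and Ctsb, Ctsd and Ctsl are carried by neurons and astrocytes as well as microglia.

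APP/PS1 mice carry transgenes for human mutant amyloid precursor protein and presenilin 1, driven by a prion protein promoter that is active in neurons, and they deposit amyloid plaques. APP-PS1_UA mice (n = 4) were positive for both transgenes and received urolithin A, a gut microbial product of ellagitannins, by gavage, and APP-PS1_CTR mice (n = 3) had the same genotype and received water. WT_CTR mice (n = 4) were negative for both transgenes and received water. The labels call all animals B6.Cg-Tg(APPswe,PSEN1dE9)85Dbo/J, also the transgene-negative ones, and give the age of these groups as 8 months. APP-PS1_UA-WASHOUT (n = 5, urolithin A), APP-PS1_WASHOUT (n = 3, no urolithin A) and WT_WASHOUT (n = 5, transgene-negative, no urolithin A) were kept 1 month longer after gavage stopped, and their labelled age is 9 months. Gavage ran from 2 to 7 months of age, and the series design places tissue collection at 7 months and 1 month later, which disagrees with the labelled ages. The labels disagree on the dose, which the design text puts at 20 mg/kg/day and the protocol of treatment at 200 mg/kg/day, so it could not be settled here.

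Levels below are log2 spot intensities minus the log2 of the 75th percentile of the same array, so that 0 is the level of that percentile and 1 unit is a doubling. They compare 1 probe across arrays, and not 1 gene with another. A difference was called where the p of limma's moderated test, adjusted by Benjamini-Hochberg across the 35259 features tested, was below 0.05. A feature is 1 gene, or 1 probe where no gene could be named. The 75th percentile signal ran from 1285 to 2292 over the arrays and 63.7% to 76.9% of spots were well above background. The 24 arrays lay on 3 slides. WT_CTR, APP-PS1_CTR and APP-PS1_UA replicate 1 shared slide 1, where WT_CTR filled 1 row and the transgenic arrays the other. The other APP-PS1_UA arrays and WT_WASHOUT lay on slide 2, and APP-PS1_UA-WASHOUT and APP-PS1_WASHOUT on slide 3. Transgene and slide therefore cannot be told apart after washout, whereas APP-PS1_CTR and WT_CTR were compared within 1 slide. All 12 tested neuron markers were well above background on every array, as were all 16 homeostatic microglia markers. In these tissue samples, fewer cells of a type and less RNA per cell cannot be told apart.

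Start sites of 8 of the 10 genes had an entry in the RefSeq promoter table (build GRCm38.p6), Ctsa with 2 starts, which makes 9 windows. The 250 bases before the start are printed for Ctsz and Ctss, which separated APP-PS1_CTR from WT_CTR arrays and APP-PS1_WASHOUT from WT_WASHOUT arrays, and for Ctsd, the member whose upstream bases held the most E-boxes. Capitals mark E-boxes (CACGTG, the core bound by TFEB and related factors of lysosomal genes), GC boxes (GGGCGG), and TATA boxes (TATAAA), searched on both strands, so that a reverse match reads CCGCCC or TTTATA.
Ctsz, chr2:174439040-174439289, minus strand: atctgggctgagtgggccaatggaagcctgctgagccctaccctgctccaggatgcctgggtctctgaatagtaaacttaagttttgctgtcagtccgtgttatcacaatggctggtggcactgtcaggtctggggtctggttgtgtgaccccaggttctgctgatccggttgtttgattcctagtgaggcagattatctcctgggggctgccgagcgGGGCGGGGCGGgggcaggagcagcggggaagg
Ctss, chr3:95526536-95526785, plus strand: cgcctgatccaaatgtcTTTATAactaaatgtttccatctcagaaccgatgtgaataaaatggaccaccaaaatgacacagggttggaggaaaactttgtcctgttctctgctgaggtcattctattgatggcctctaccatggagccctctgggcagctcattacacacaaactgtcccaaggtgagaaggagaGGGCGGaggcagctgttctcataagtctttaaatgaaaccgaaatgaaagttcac
Ctsd, chr7:142387828-142388077, minus strand: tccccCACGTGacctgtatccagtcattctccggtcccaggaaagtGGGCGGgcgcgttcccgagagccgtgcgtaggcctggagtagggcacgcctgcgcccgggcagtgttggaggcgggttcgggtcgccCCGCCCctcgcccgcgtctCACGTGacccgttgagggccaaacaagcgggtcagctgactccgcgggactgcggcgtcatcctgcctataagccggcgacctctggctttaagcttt
The Ctsz window held 2 overlapping GC boxes, 32 and 27 bases before the start, and no E-box. The Ctss window held 1 GC box and 1 TATA box, the TATA box 233 bases before the start. The Ctsd window held 2 E-boxes, of which the one 98 bases before the start was part of the longer TCACGTGA. E-boxes were present in 4 of the 9 member windows (Ctsa, Ctsd, Ctsf and Ctsl), against 6.02% of all 32841 windows of the same length in the table. The Ctsl window and the Ctsa window with the E-box (chr2:164833523-164833772) lay inside the gene spans given above. The other Ctsa window, before the gene, held no E-box. TCACGTGA was present in 2 of 9 (Ctsa and Ctsd), against 0.786% of all. GC boxes were present in 5 of 9, against 32.7% of all. GAGGAAGT, a form of the site bound by the myeloid factor PU.1, was present in 1 of 9 (Ctsc), against 2.44% of all. These are matches of letters and no evidence of binding.

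**Figure D1:**
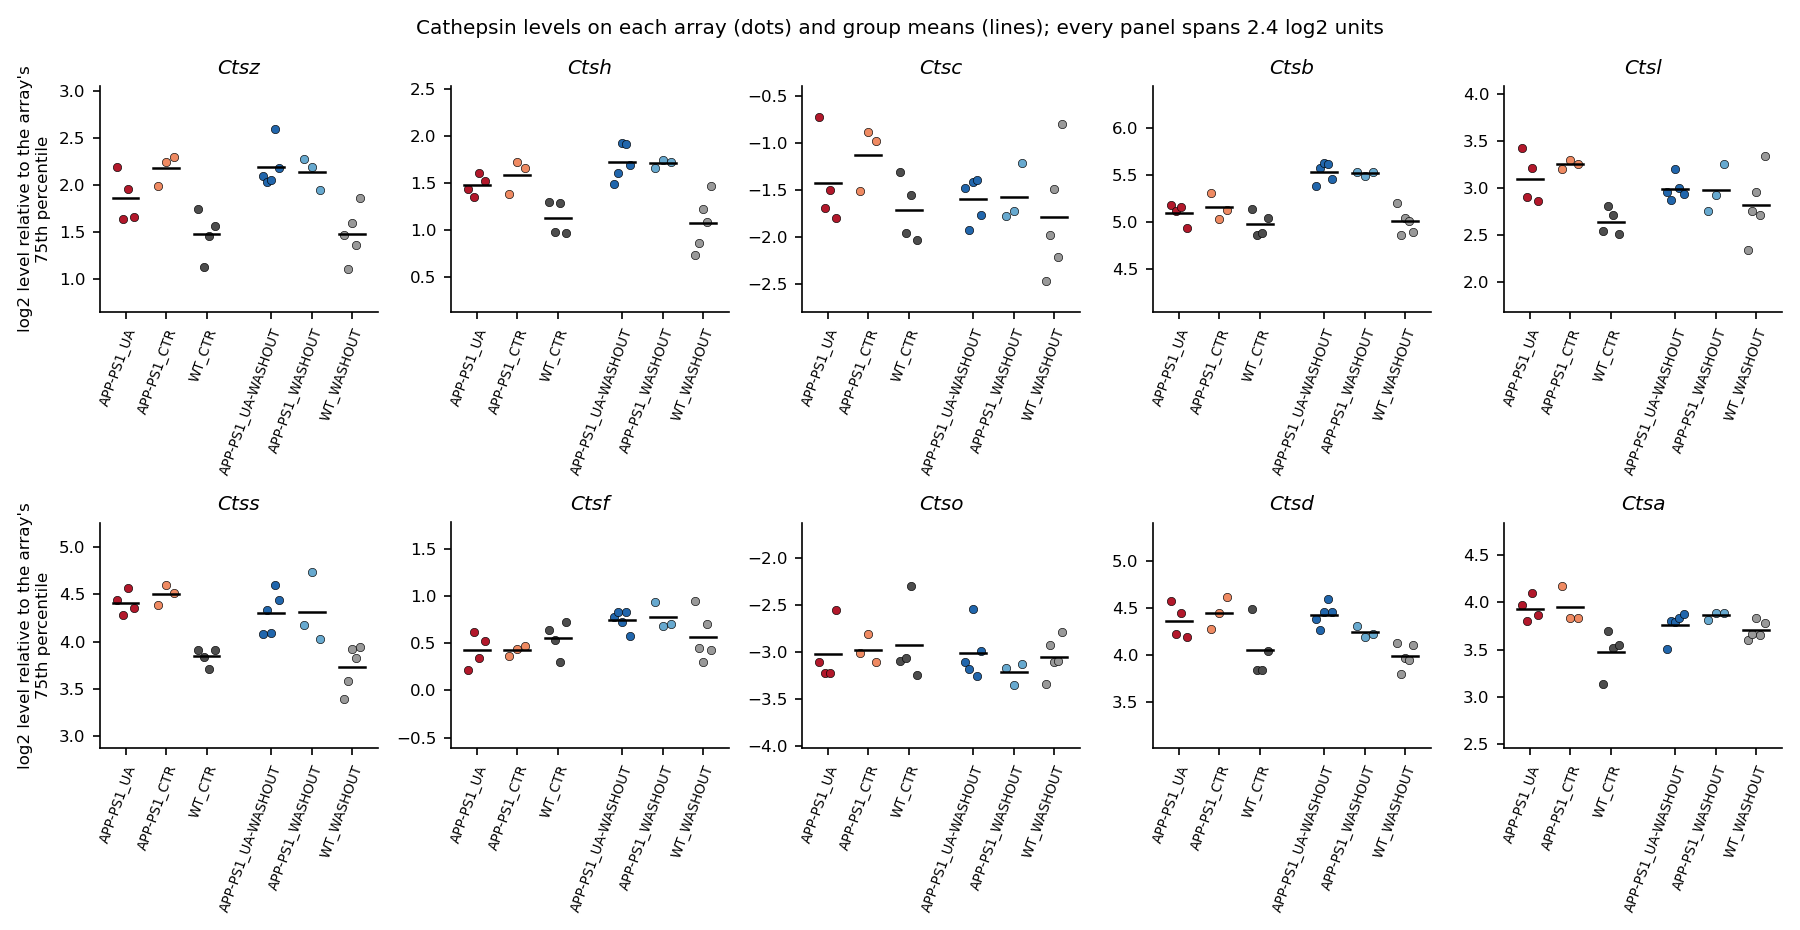
Level of each of the 10 cathepsins on every array, as log2 intensity relative to the array's 75th percentile (vertical axis), by group (horizontal axis). Each dot is 1 mouse and each line a group mean. In Ctsz, Ctss and Ctsh, all APP-PS1_CTR dots lie above all WT_CTR dots and all washout transgenic dots above all WT_WASHOUT dots, whereas Ctsf and Ctso overlap in both pairs.

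The comparison of APP-PS1_CTR with WT_CTR asks what the transgenes did to cathepsin transcripts at the end of the gavage period. The change was positive for 8 of the 10 cathepsins, with a median log2 change of 0.46, beside a median of -0.01 over all features. In Ctsz, Ctss, Ctsl, Ctsh and Ctsa every APP-PS1_CTR array lay above every WT_CTR array. That makes 5 of 10 members that did not overlap upward, where 4.31% of all features did so. None of the 10 passed the adjusted threshold by limma, where 0.153% of all features (54 of 35259) were called higher. At an unadjusted p under 0.05 stood 6 of the 10, against 6.49% of all features.

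Of the exopeptidases, which trim proteins from their ends, Ctsz is a carboxypeptidase. It had levels of 1.99, 2.25 and 2.30 in APP-PS1_CTR, against 1.75, 1.13, 1.46 and 1.57 in WT_CTR. The lowest APP-PS1_CTR array was above the highest WT_CTR array. Its mean was 2.18 ± 0.16 in APP-PS1_CTR and 1.48 ± 0.26 in WT_CTR (SD), a log2 change of 0.70 (SE 0.18, 1.63-fold, limma adjusted p = 0.235). Ctsh, an aminopeptidase, had 1.39, 1.73 and 1.66 in APP-PS1_CTR, against 1.30, 0.98, 1.29 and 0.97 in WT_CTR, with no overlap. Its change was 0.46 (SE 0.15, limma adjusted p = 0.53). Ctsc, a dipeptidyl peptidase that activates serine proteases of immune cell granules, had -1.51, -0.88 and -0.98 in APP-PS1_CTR, against -1.31, -1.96, -1.55 and -2.03 in WT_CTR. These groups overlapped, and the change of 0.59 had an interval from -0.08 to 1.26 (95%, limma adjusted p = 0.793).

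Of the endopeptidases, which cut within a chain, Ctss is known for cleaving the invariant chain of MHC class II in antigen-presenting cells. Its levels were 4.39, 4.60 and 4.52 in APP-PS1_CTR, against 3.91, 3.84, 3.71 and 3.91 in WT_CTR. The arrays fell into separate ranges with an SD of 0.10 in each group. The change of 0.66 (SE 0.16, 1.58-fold) had the lowest p of the 10 members in this comparison, with a limma adjusted p of 0.165. Ctsl, a broad endopeptidase of all lysosomes, had 3.20, 3.30 and 3.26 in APP-PS1_CTR, against 2.54, 2.81, 2.71 and 2.51 in WT_CTR, again without overlap. The change was 0.61 (SE 0.18, limma adjusted p = 0.396), and its probe was printed on 10 spots an array, whose SD ran from 0.014 to 0.117 log2 units. Ctsb, which cuts within chains and also from their carboxyl end, had 5.31, 5.04 and 5.13 in APP-PS1_CTR, against 5.14, 4.87, 4.89 and 5.05 in WT_CTR. Its groups overlapped, and its change was 0.17 (SE 0.10, limma adjusted p = 0.797).

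Ctsf and Ctso, the other papain-family endopeptidases, gave changes of -0.12 and -0.05, with limma adjusted p-values of 0.889 and 0.976, and both overlapped between APP-PS1_CTR and WT_CTR. Ctsd, the main aspartic protease of the lysosome, had 4.27, 4.44 and 4.61 in APP-PS1_CTR, against 4.49, 3.84, 3.84 and 4.04 in WT_CTR. WT_CTR replicate 1 lay inside the transgenic range and the other WT_CTR arrays below it, with a change of 0.39 (SE 0.14, limma adjusted p = 0.623). Ctsa, a serine carboxypeptidase that also protects lysosomal beta-galactosidase and neuraminidase, had 4.17, 3.84 and 3.83 in APP-PS1_CTR, against 3.13, 3.70, 3.52 and 3.55 in WT_CTR. No array overlapped, and the change was 0.47 (SE 0.12, limma adjusted p = 0.252).

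APP-PS1_CTR and WT_CTR filled different rows of slide 1. With array row as a block, which borrows the row difference from the other groups, the changes were 0.52 for Ctsz, 0.41 for Ctss, 0.30 for Ctsa, 0.25 for Ctsl, 0.23 for Ctsh and 0.05 for Ctsc, each with a limma adjusted p of 1. The row difference rested on APP-PS1_UA replicate 1, WT_WASHOUT replicate 1 and APP-PS1_UA-WASHOUT replicate 1, each its group's only array in its row. Choroid plexus markers also differed between APP-PS1_CTR and WT_CTR. All 12 were higher on average in APP-PS1_CTR, with a median change of 1.80, but 0 were called by limma and 0 had an unadjusted p under 0.05, and 11 of the 12 were well above background on every array. Their mean level ran from 1.18 to 2.92 in APP-PS1_CTR and from -1.85 to 3.14 in WT_CTR. Over all arrays it was highest in APP-PS1_UA replicate 1 (3.53) and lowest in WT_WASHOUT replicate 1 (-2.58). Both are among the arrays on which the row difference rested. With that mean level as a covariate, the change of Ctsc was 0.27, that of Ctsl 0.49, that of Ctsz 0.60 and that of Ctss 0.66.

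**Figure D2:**
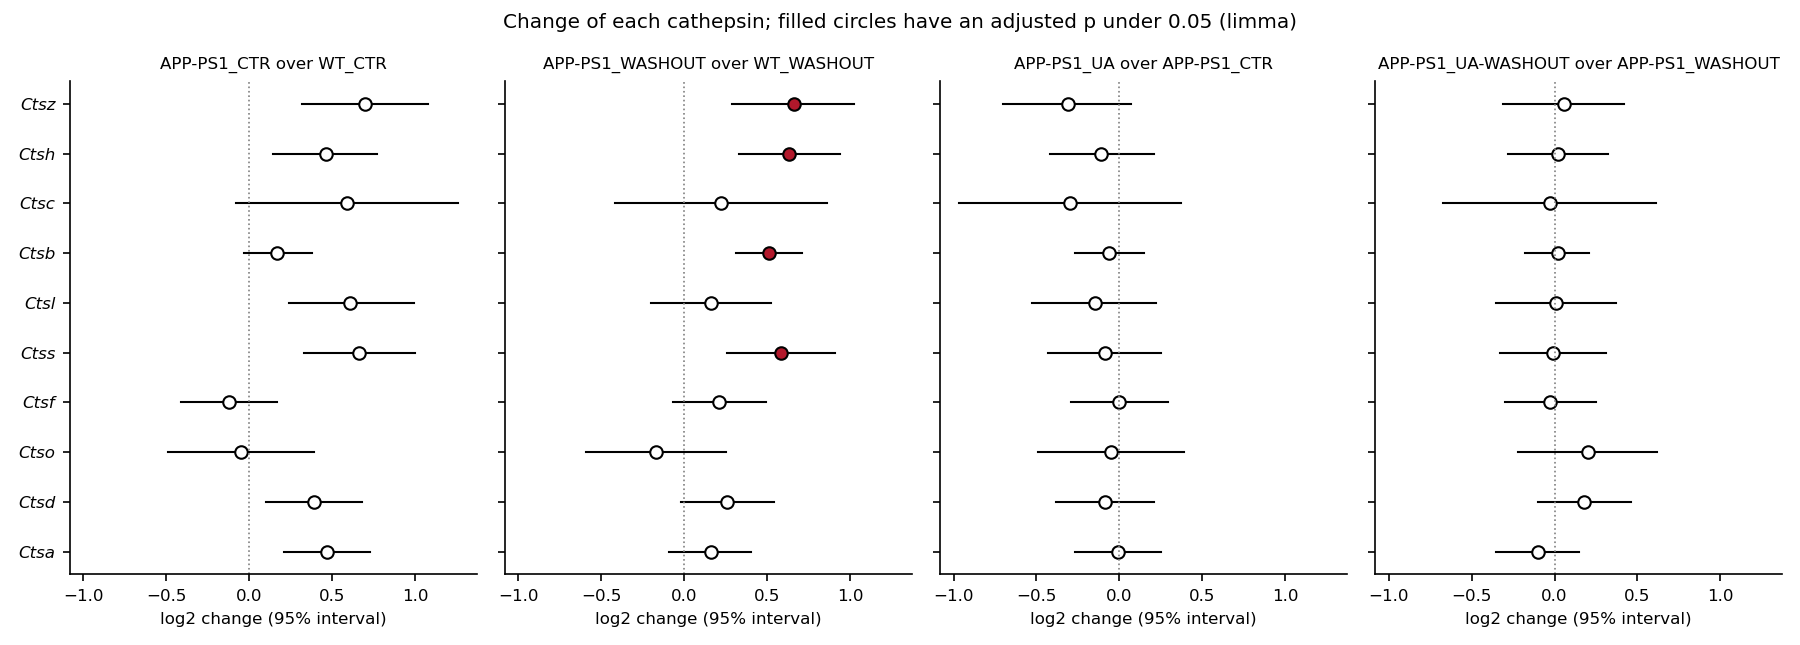
Log2 change of each cathepsin (horizontal axis, circle) with its 95% interval (line) in 4 comparisons, from limma over all 24 arrays. Filled circles mark an adjusted p under 0.05, which only Ctsz, Ctsh, Ctsb and Ctss reached, in APP-PS1_WASHOUT over WT_WASHOUT. In both urolithin A comparisons all 10 intervals include 0.

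The same transgene comparison a month later set APP-PS1_WASHOUT against WT_WASHOUT. Ctsb, Ctsh, Ctss and Ctsz were called higher, which is 4 of 10 members. Of all features 20.0% (7036 of 35259) were called higher, a share that would come to 2 of 10. At an unadjusted p under 0.05 stood the same 4 members, against 37.8% of all features in either direction. No member was called lower. The members' median change was 0.24, beside 0.08 over all features. In 5 members (the 4 called and Ctsd) every APP-PS1_WASHOUT array lay above every WT_WASHOUT array, against 21.3% of all features. Slide 3 held all arrays of one side and slide 2 all of the other, so for these values transgene and slide cannot be told apart. Array row largely coincided with transgene too. All APP-PS1_WASHOUT arrays and WT_WASHOUT replicate 1 lay in the first row of their slides, and the remaining WT_WASHOUT arrays in the other.

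Ctsb had the smallest SD of the members in APP-PS1_WASHOUT, 0.03. Its levels were 5.54, 5.49 and 5.54 in APP-PS1_WASHOUT, against 5.21, 4.87, 5.05, 5.02 and 4.90 in WT_WASHOUT. All transgenic arrays lay above all WT_WASHOUT arrays. The change was 0.51 (SE 0.10, 1.43-fold, limma adjusted p = 0.000394), and 0.32 after quantile normalization (limma adjusted p = 0.00716). At the end of gavage its change had been 0.17, and the difference of these transgene effects, washout minus end of gavage, was 0.34 (SE 0.14) with a limma adjusted p of 0.110.

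Ctsz had 2.28, 2.19 and 1.95 in APP-PS1_WASHOUT, against 1.47, 1.11, 1.60, 1.36 and 1.86 in WT_WASHOUT. The groups did not overlap, but WT_WASHOUT replicate 5 came within 0.1 of the lowest transgenic array. The change was 0.66 (SE 0.18, 1.58-fold, limma adjusted p = 0.00777), beside 0.70 in APP-PS1_CTR over WT_CTR, and the difference between these effects was -0.04 (SE 0.25). Ctss had 4.18, 4.74 and 4.03 in APP-PS1_WASHOUT, against 3.39, 3.58, 3.92, 3.83 and 3.94 in WT_WASHOUT. Replicate 2 stood well above the other APP-PS1_WASHOUT arrays, and the lowest of them lay just above the highest WT_WASHOUT array. The change was 0.58 (SE 0.15, limma adjusted p = 0.00761). Without APP-PS1_WASHOUT replicate 2 it was 0.37 (limma adjusted p = 0.095), and with only these 2 groups in the fit the adjusted p was 0.0705.

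Ctsh had 1.66, 1.75 and 1.73 in APP-PS1_WASHOUT, against 0.74, 0.87, 1.23, 1.09 and 1.47 in WT_WASHOUT. The transgenic arrays were tightly grouped above a wide WT_WASHOUT range, with a change of 0.63 (SE 0.14, 1.55-fold, limma adjusted p = 0.00238). Its 3 probes did not give the same picture. Probe A_51_P277792 also separated the groups, with -3.47, -3.68 and -3.48 in APP-PS1_WASHOUT, against values from -4.08 to -4.02 in WT_WASHOUT, and its change was 0.51 (limma adjusted p = 0.000566). Probe A_66_P124326 had -2.52, -2.72 and -2.66 in APP-PS1_WASHOUT, against -2.69, -2.90, -2.46, -2.70 and -2.35 in WT_WASHOUT. These ranges overlapped fully, with a change of -0.01 (limma adjusted p = 0.962). In APP-PS1_CTR over WT_CTR the same 2 probes had given 0.22 and 0.44, next to 0.46 for the probe used. The mean over the 3 probes changed by 0.38 after washout (limma adjusted p = 0.0159).

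**Figure D3:**
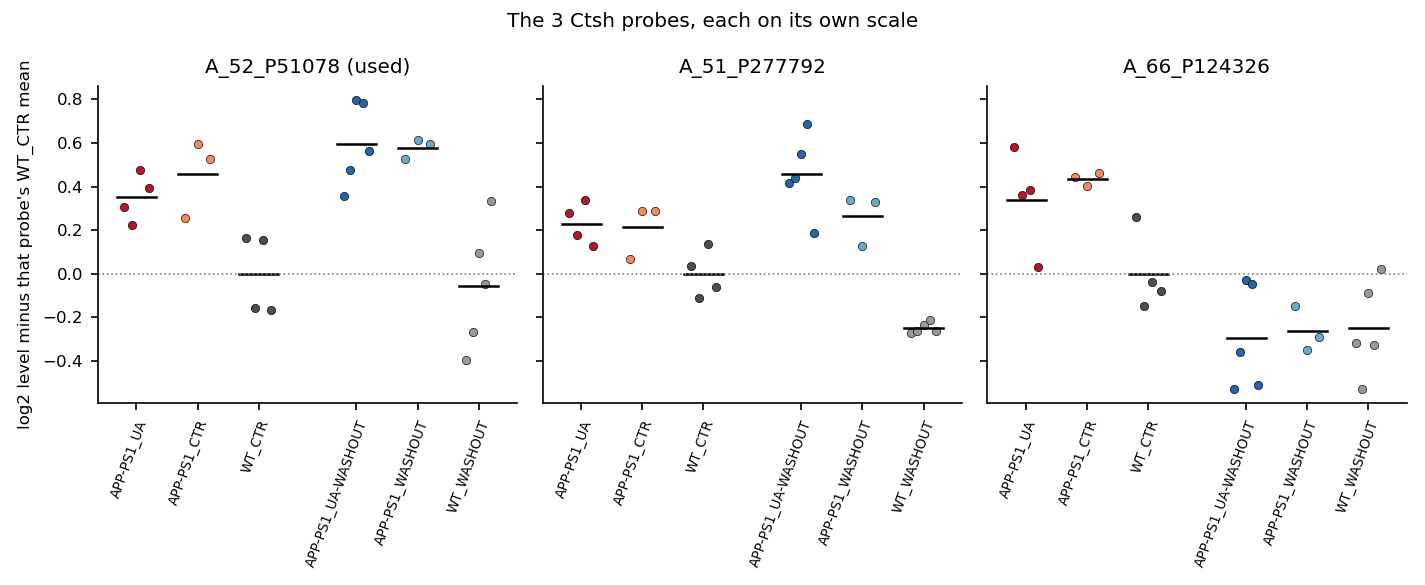
Level of the 3 Ctsh probes on every array, each as log2 level minus that probe's own WT_CTR mean (vertical axis), by group (horizontal axis). Dots are mice and lines are group means. All 3 probes place APP-PS1_CTR above 0, but A_66_P124326 places the 3 washout groups at like levels, whereas the other probes separate both transgenic washout groups from WT_WASHOUT.

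Of the members that were not called after washout, Ctsd came nearest by p. It had 4.31, 4.19 and 4.22 in APP-PS1_WASHOUT, against 4.12, 3.80, 3.96, 3.94 and 4.10 in WT_WASHOUT, which did not overlap. The change was 0.26 (SE 0.13, limma adjusted p = 0.166). Ctsa, Ctsl and Ctsc, with changes of 0.16, 0.16 and 0.22, overlapped with WT_WASHOUT and had limma adjusted p-values of 0.358, 0.535 and 0.641. Beside their changes at the end of gavage, these were 0.31, 0.45 and 0.37 log2 units smaller, but the differences had limma adjusted p-values of 0.248, 0.254 and 0.652. Under the alternative settings the differences ran from -0.343 to -0.01 for Ctsa, -0.525 to 0.198 for Ctsl and -0.527 to 0.601 for Ctsc. The sign therefore did not hold for Ctsl and Ctsc. Over the 10 members, none differed between the 2 transgene effects by limma, where 14.2% of all features were called in that contrast, and 1 (Ctsb) had an unadjusted p under 0.05, against 27.6% of all features. Ctsf gave 0.21 (limma adjusted p = 0.259) and Ctso -0.17 (limma adjusted p = 0.587).

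Ctsc and Ctsl spanned wide ranges within groups, and over all 24 arrays their highest and lowest arrays were also those of the choroid plexus markers. In WT_WASHOUT, Ctsc was -0.80 in replicate 5 and -2.47 in replicate 1, where the mean level of the choroid plexus markers was 3.35 and -2.58. Ctsl was 3.34 and 2.34 in the same arrays. In APP-PS1_UA, replicate 1 had the highest choroid plexus level of all 24 arrays, 3.53, and also the highest Ctsc (-0.72) and Ctsl (3.43). The other APP-PS1_UA arrays had Ctsc levels of -1.69, -1.50 and -1.80 and choroid plexus levels of 0.58, -1.62 and -2.50. Their Ctsl levels, in the same order, were 2.90, 3.21 and 2.86. WT_CTR replicate 1 went the other way for Ctsl, at 2.54 with a choroid plexus level of 3.14. So did WT_CTR replicate 2, with the highest Ctsl of that group, 2.81, at its lowest choroid plexus level, -1.85. Whether choroid plexus tissue accounted for these levels was not tested.

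**Figure D4:**
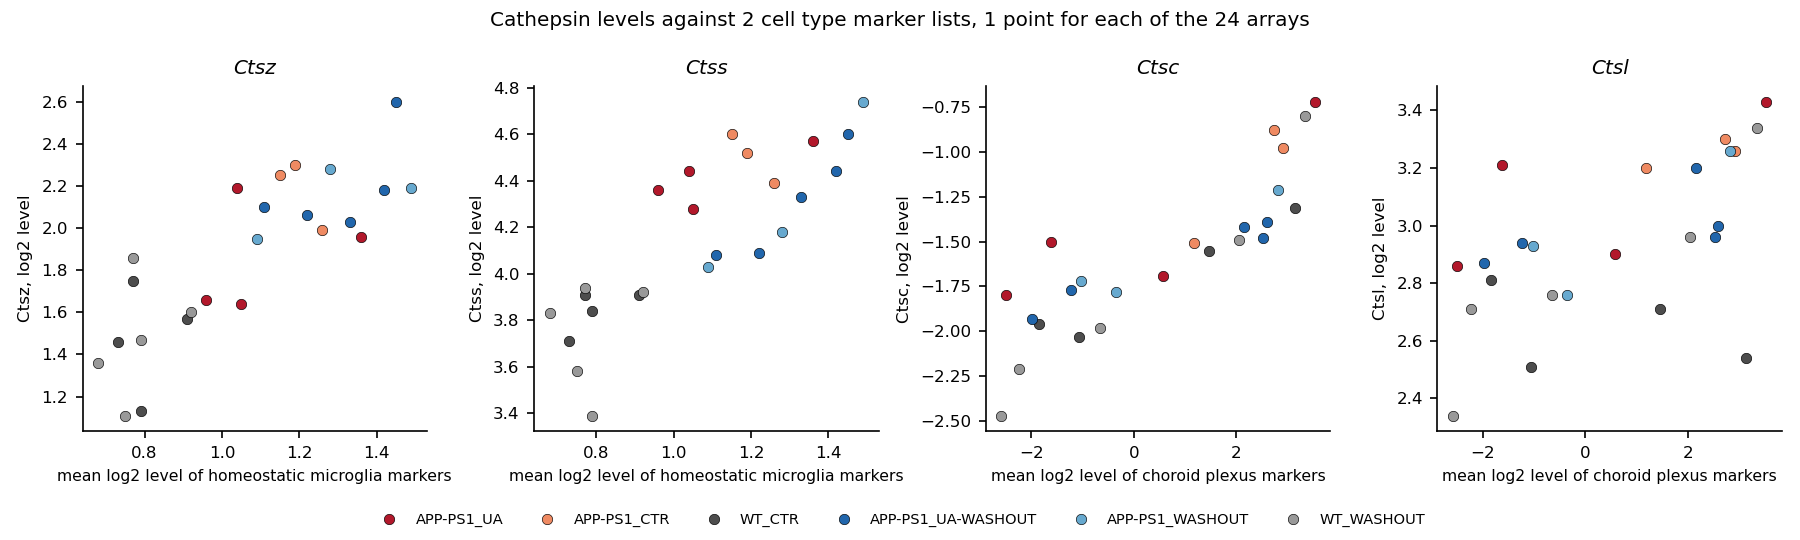
Log2 level of Ctsz and Ctss (vertical axes) against the mean log2 level of the homeostatic microglia markers, and of Ctsc and Ctsl against that of the choroid plexus markers (horizontal axes). Each point is 1 of the 24 arrays, coloured by group. Transgenic points lie above and right of WT_CTR and WT_WASHOUT points in the Ctss panel, and Ctsc is highest where the choroid plexus markers are highest.

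Urolithin A was the other treatment of the study. In APP-PS1_UA over APP-PS1_CTR no cathepsin was called by limma, nor was any feature at all (0.0% of 35259), and 0 members had an unadjusted p under 0.05, against 7.34% of all features. The median change of the 10 members was -0.09, beside -0.02 over all features. Ctsz was the member with the largest difference. Its levels were 2.19, 1.64, 1.96 and 1.66 in APP-PS1_UA, against 1.99, 2.25 and 2.30 in APP-PS1_CTR. Both groups overlapped, 3 of the 4 APP-PS1_UA arrays lay below the range of APP-PS1_CTR, and the change was -0.31 (95% interval -0.70 to 0.07, limma adjusted p = 0.702). APP-PS1_UA replicate 1, the array at 2.19, was the one that shared slide 1 with APP-PS1_CTR, and with slide as a block, which leaves that array alone for this comparison, the change was 0.01. Choroid plexus markers had a median change of -2.35 in this comparison, and with their mean level as a covariate the change of Ctsz was -0.19.

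The other members gave changes from -0.30 (Ctsc) to 0.00 (Ctsf). For Ctss the levels were 4.44, 4.28, 4.57 and 4.36 in APP-PS1_UA, against 4.39, 4.60 and 4.52 in APP-PS1_CTR, which overlapped, and the interval of the change was -0.43 to 0.25. For Ctsb it was -0.27 to 0.15 and for Ctsd -0.38 to 0.21.

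After washout, APP-PS1_UA-WASHOUT and APP-PS1_WASHOUT lay on the same slide, but mostly in different rows of it. All APP-PS1_WASHOUT arrays and APP-PS1_UA-WASHOUT replicate 1 lay in 1 row, and the remaining APP-PS1_UA-WASHOUT arrays in the other. In the former row 73.8% to 76.9% of spots were well above background, and in the latter 63.7% to 69.9%. Urolithin A and array row therefore largely coincide in this comparison. No member was called by limma, where 0.0624% of all features (22 of 35259) were called, and 0 members had an unadjusted p under 0.05, against 7.45% of all features. Ctsz had 2.10, 2.03, 2.06, 2.60 and 2.18 in APP-PS1_UA-WASHOUT, against 2.28, 2.19 and 1.95 in APP-PS1_WASHOUT. All but replicate 4 lay inside the range of APP-PS1_WASHOUT, and the change was 0.06 (95% interval -0.31 to 0.42, limma adjusted p = 0.98). Ctsb, with 5.39, 5.58, 5.63, 5.62 and 5.46 in APP-PS1_UA-WASHOUT against 5.54, 5.49 and 5.54 in APP-PS1_WASHOUT, had the narrowest interval, -0.18 to 0.21. For Ctsd 4 of the 5 treated arrays lay above all 3 untreated ones, with a change of 0.18 (limma adjusted p = 0.823). The urolithin A effect after washout minus that at the end of gavage was not called for any member, where 0.00851% of all features were, and 0 members had an unadjusted p under 0.05, against 9.78% of all features. The largest such difference was 0.37 in Ctsz (limma adjusted p = 0.653).

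The urolithin A groups were also set against the transgene-negative mice. These comparisons share their WT arrays with those of the untreated transgenic groups above. In APP-PS1_UA over WT_CTR no member was called by limma, where 0.0425% of all features were called higher, and 6 members had an unadjusted p under 0.05, against 6.08% of all features. The change was 0.57 for Ctss, 0.46 for Ctsa, 0.46 for Ctsl, 0.39 for Ctsz, 0.35 for Ctsh and 0.30 for Ctsd. In APP-PS1_UA-WASHOUT over WT_WASHOUT 5 members were called higher (Ctsb by 0.53, Ctsd by 0.44, Ctsh by 0.65, Ctss by 0.58 and Ctsz by 0.72), where 23.6% of all features were called higher, again a share of between 2 and 3 in 10. Here too slide and transgene cannot be told apart. WT_WASHOUT and WT_CTR, which differ in age and slide but carry no transgene, gave no member called by limma, where 0.017% of all features were called, and 1 member with an unadjusted p under 0.05 (Ctsa, 0.23), against 8.18% of all features. Ctsz averaged 1.48 in both of these groups, with SDs of 0.28 in WT_WASHOUT and 0.26 in WT_CTR.

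The order of the group means of Ctsz was 2.19 in APP-PS1_UA-WASHOUT, 2.18 in APP-PS1_CTR, 2.14 in APP-PS1_WASHOUT, 1.86 in APP-PS1_UA, and 1.48 in both WT_WASHOUT and WT_CTR. Neighbours in that order up to APP-PS1_WASHOUT differed by less than their SDs, which ran from 0.16 to 0.23. APP-PS1_UA, with an SD of 0.26, stood between these and the transgene-negative groups.

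For the members called in APP-PS1_WASHOUT over WT_WASHOUT, the 5 genes with the most similar centred levels over the 24 arrays were listed by the root mean square difference in log2 units. Cyba was on the lists of both Ctsz and Ctsh. For Ctsz, whose own SD over the arrays was 0.38, they were Cyba (0.153), Capg (0.157), Unc93b1 (0.181), Ptpn18 and 1700003F12Rik (both 0.189). For Ctss (SD 0.348) they were Havcr2 (0.105), Myo1f, Ly86, Clec5a and Vav1 (up to 0.141). For Ctsh (SD 0.319) they were Arpc1b (0.14), Nfam1, Csf1r, Tnfaip8l2 and Cyba (up to 0.157), of which Csf1r encodes the receptor that microglia need to survive. For Ctsb (SD 0.252) they were Ftl1 and Slc10a1 (both 0.095), Rpl24, Ppia and Qsox1 (up to 0.114), of which Ftl1 encodes a ferritin chain and Rpl24 a ribosomal protein.

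Microglia markers were called in both transgene comparisons, also in APP-PS1_CTR over WT_CTR, where no cathepsin was. Of the 16 homeostatic markers, 1 was called higher in APP-PS1_CTR over WT_CTR (Fcrls, 0.71) and 10 in APP-PS1_WASHOUT over WT_WASHOUT, where 0.153% and 20.0% of all features were called higher, and the median changes were 0.42 and 0.54. Their mean level ran from 1.15 to 1.26 in APP-PS1_CTR, against 0.73 to 0.91 in WT_CTR, and from 1.09 to 1.49 in APP-PS1_WASHOUT, against 0.68 to 0.92 in WT_WASHOUT, without overlap in either pair. Of 19 tested markers of plaque-associated microglia, 10 were called higher in APP-PS1_CTR over WT_CTR, and 15 higher and 1 lower in APP-PS1_WASHOUT over WT_WASHOUT, with median changes of 1.09 and 1.04. In both transgene comparisons the median of the 10 cathepsins was smaller than that of the plaque-associated list. How much of the cathepsin changes went with the microglial markers was not tested.

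Among the inhibitors of cathepsins, Cst7 (cystatin F, an inhibitor of cysteine cathepsins that is switched on in plaque-associated microglia) had the largest change, and it is also in the plaque-associated list. It averaged 0.09 ± 0.18 in APP-PS1_CTR and -5.83 ± 0.63 in WT_CTR (SD), a log2 change of 5.92 (SE 0.37, limma adjusted p = 1.16e-08), and it rose by 5.87 in APP-PS1_WASHOUT over WT_WASHOUT (limma adjusted p = 5.38e-10). Cst3, the cystatin secreted most widely, gave a change of 0.15 at the end of gavage (limma adjusted p = 0.869) and rose by 0.66 after washout (limma adjusted p = 0.00152). Of the 9 tested inhibitors, 1 was called higher at the end of gavage, against 0.153% of all features, and 4 after washout, against 20.0% of all features, none lower. Their median change was 0.15 at the end of gavage and 0.32 after washout, beside 0.46 and 0.24 for the 10 cathepsins. Lgmn, the asparaginyl protease that processes several cathepsins, gave changes of 0.26 (limma adjusted p = 0.617) and 0.15 (limma adjusted p = 0.252).

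Calls in the lists of other lysosomal genes are to be read against 20.0% of all features called higher and 7.67% called lower after washout. Of 32 other lysosomal hydrolases, 0 were called by limma in APP-PS1_CTR over WT_CTR and 7 had an unadjusted p under 0.05, with a median change of 0.11. After washout 7 were called higher and 2 lower, with a median of 0.16, and Dnase2a (2.13), Idua (1.48) and Lyz2 (1.39) changed most. Of 27 tested membrane proteins and proton pump subunits, Cd68, a microglial lysosomal glycoprotein, was the 1 called higher at the end of gavage (0.93, limma adjusted p = 0.019). After washout 2 were called higher, among them Cd68 (1.03), and 2 lower (Atp6v1a and Atp6v1e1, subunits of the pump, by -0.43 and -0.33), and the medians were -0.04 in both comparisons. Of 16 genes of cathepsin sorting, processing and activation, 0 were called by limma at the end of gavage, where 1 had an unadjusted p under 0.05. After washout 2 were called higher (Gnptg and Nagpa, which act in making the mannose 6-phosphate tag) and 2 lower (Igf2r, a receptor for that tag, and Gga3, an adaptor of it). Of 7 tested transcription factors of lysosomal and myeloid genes, Irf8 was called in both comparisons, at 0.68 and 1.01. The remaining cathepsins were mostly dim. Of 12 with a probe, 6 were bright enough to be tested and 0 were called by limma at the end of gavage, with 0 at an unadjusted p under 0.05. After washout 4 were called higher (Cts6, Cts7, Ctsm and Ctsw), and the median change of the 6 was 1.10. A probe well above background on only 3 arrays was tested, so a dim one can enter through the groups where it is high. These calls are therefore no support for a rise of these genes, and here too slide and transgene cannot be told apart. Cts6 was well above background on 2 of 3 APP-PS1_WASHOUT arrays and on 0 of 5 WT_WASHOUT arrays. Cts7 was well above background on all 3 APP-PS1_WASHOUT arrays and on 2 of 5 WT_WASHOUT arrays.

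**Figure D5:**
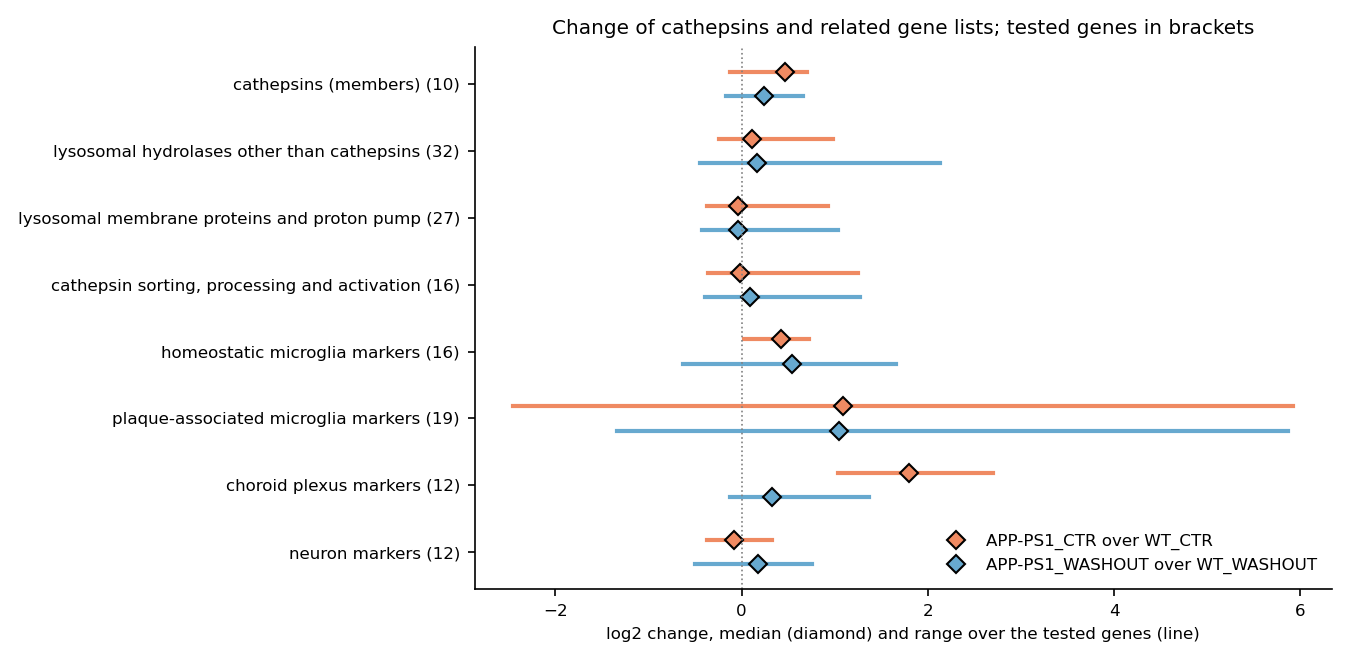
Median (diamond) and range (line) of the log2 change over the tested genes of 8 lists (vertical axis, number tested in brackets), in APP-PS1_CTR over WT_CTR and in APP-PS1_WASHOUT over WT_WASHOUT. The cathepsins have medians of 0.46 and 0.24, above those of the 3 other lysosomal lists plotted and below those of the plaque-associated microglia list. The homeostatic microglia markers have medians of 0.42 and 0.54, and the choroid plexus markers 1.80 and 0.33.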

How the data were processed

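Per the file headers, the authors read spot intensities out with version 12.0.3.1 of Agilent's Feature Extraction, which subtracts the background within an array and scales nothing across arrays. A score was deposited beside them in the series' value table. It is each array's log signal standardized over all spots (within 0.005, tested on the files), whose log base cannot be told. Its column medians ran from -0.17 to -0.06. Total hippocampal RNA was labelled with 1 dye, 1 array a mouse. Values were taken as log2 of the deposited intensity minus the log2 of each array's 75th percentile.

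Control spots (3671 of 62976 an array) and spots with an outlier flag were left out, spots of 1 probe averaged, and probes kept that were well above background on at least 3 arrays with at least 2 values in every group (43988 passed on background, of which 15 had too few values). Probes were named through RefSeq accessions (32994 of 56605 matched). For each symbol the brightest kept probe was used, and a probe without a symbol was its own feature. limma 3.58.1 in R 4.3.3 fitted 6 group means to all 24 arrays. The fit was tested on simulated data. The labels do not say whether mice shared a litter or cage. The p-values therefore take the mice as independent, and they judge differences against the spread between these mice. The members, gene lists and tests were chosen with earlier results of these data known. All members are named, and of each other list the called genes with the largest change (at most 4, or 2 where none was called), a subset of which is printed. Normexp used the median spot signal, since the files hold no mean signal. Same-numbered arrays of compared groups had correlations of deviations from -0.238 to 0.318 over 25 pairs, so the numbers were not taken to pair the animals. Motifs were searched in the RefSeq promoter table. Of the cell type lists not described in the report, 2 of 12 neuron markers were called higher and 1 lower after washout, 1 of 10 astrocyte and 1 of 10 oligodendrocyte markers higher, 2 of 8 endothelium markers lower, 2 of 11 blood and leukocyte markers higher and 0 of 7 meninges markers (0 at an unadjusted p under 0.05), all by limma. In APP-PS1_CTR over WT_CTR 0 of each of these lists were called by limma, with 2 astrocyte, 1 oligodendrocyte and 1 endothelium marker and 0 of the others at an unadjusted p under 0.05.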

Additional observations from a re-analysis of the deposited data

Results flagged for a closer look

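Of the 48 groups of at least 4 arrays checked over the 12 probes, 3 held an array far from the others of its group. That is near the share of about 1 in 20 that chance gives. Ctsa was lowest in APP-PS1_UA-WASHOUT replicate 1, at 3.51, with the next array at 3.79, a gap of 0.76 of the group's range. Ctso was highest in APP-PS1_UA replicate 4, at -2.55, with the next array at -3.11, a gap of 0.839 of the range. Ctsz was highest in APP-PS1_UA-WASHOUT replicate 4, at 2.60, with the next array at 2.18, a gap of 0.743 of the range. The same array had the highest mean level of the plaque-associated microglia markers, 0.48.

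Ctsf gave opposite signs in the 2 transgene comparisons. Every APP-PS1_CTR array lay below the WT_CTR mean, with a change of -0.12, and every APP-PS1_WASHOUT array above the WT_WASHOUT mean, with a change of 0.21. The difference between these changes was 0.33 (SE 0.19), with a limma adjusted p of 0.274. With array row as a block the changes were 0.15 and 0.00.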

How the results depend on the processing

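The number of called cathepsins stayed at 0 in APP-PS1_UA over APP-PS1_CTR, APP-PS1_UA-WASHOUT over APP-PS1_WASHOUT, APP-PS1_UA over WT_CTR and WT_WASHOUT over WT_CTR under all alternatives run, including the leave-one-out fits. In APP-PS1_CTR over WT_CTR it was 0 under all alternatives but limma's arrayWeights, which called 1 (Ctsz, 0.71, adjusted p = 0.0498). The difference of the transgene effects was called for 1 member (Ctsb, 0.37, adjusted p = 0.03) with arrayWeights and for 0 otherwise. The cause was not tested. In APP-PS1_WASHOUT over WT_WASHOUT 3 or 4 members were called in every fit, and leave-one-out fits gave 3 to 4. In APP-PS1_UA-WASHOUT over WT_WASHOUT 5 to 7 were called, 7 with the authors' scores, and leave-one-out fits gave 5 to 6, where 6 was without WT_WASHOUT replicate 1 (Ctsf 0.28, adjusted p = 0.0434). Ctso turned to -0.11 on the score scale there (adjusted p = 0.0406). The replicate block changed no count: it called 0, 4 and 5 members in these 3 comparisons. Slide as a fixed block could not be fitted for APP-PS1_WASHOUT or APP-PS1_UA-WASHOUT over WT_WASHOUT or for the difference of the transgene effects. Slide as a random block had an estimated correlation of -0.057 and says nothing about a slide effect there. Quantile normalization moved the median of all features in APP-PS1_WASHOUT over WT_WASHOUT to -0.06, against 0.08, and the share of calls that were higher to 46.2%, against 72.2%, and in APP-PS1_UA-WASHOUT over WT_WASHOUT to 41.8%, against 65.6%. On the authors' scores these shares were 41.2% and 32.7%. Relative to these medians all 4 members called after washout stayed above. The number of called features in APP-PS1_CTR over WT_CTR was 55, between 8 with array row as a block and 142 with arrayWeights (29 without the filter on dim probes, 31 with slide as a block, 27 within slide 1, 33 with the replicate block, leave-one-out 22 to 34). In APP-PS1_WASHOUT over WT_WASHOUT it was 9741, and 5880 with normexp and 6420 with only probes well above background on all arrays. In APP-PS1_UA-WASHOUT over APP-PS1_WASHOUT it was 22, between 0 within slide 3 and 2964 without the filter. The contrast of the transgene effects had 4997, and 758 with array row as a block and 1968 with normexp. Normexp and the choroid plexus covariate were added after the data were seen.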
